A study of Mus musculus with 6 samples.

Results

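The 50 genes described here encode the subunits of respiratory complexes II, III and IV, cytochrome c and ATP synthase, together with the inhibitor protein of ATP synthase. Of them 44 lie in the nuclear genome and 6 in mitochondrial DNA. They were chosen by gene symbol, and all 50 were found among the 36558 genes of the authors' deposited gene table and among the 15929 genes with an adjusted p. Splicing events are listed in the authors' deposited event table for 41 of the 50 genes, 494 of 265079 in all. Hearts of 3 control mice (Srsf3Fl/Fl) were compared with hearts of 3 cKO mice (Srsf3Fl/Fl-βMHC-Cre). Both groups carry Srsf3, the gene of a splicing factor of the SR family, flanked by loxP sites. The cKO mice also carry a Cre transgene under the Myh7 promoter, which is active in cardiomyocytes from before birth, and no animal was treated. The controls carry no Cre, so the deletion and the transgene cannot be told apart. RNA came from whole hearts, in which fewer cardiomyocytes and less RNA per cardiomyocyte cannot be told apart.

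The respiratory chain of the inner mitochondrial membrane passes electrons from NADH and succinate to oxygen and pumps protons, and ATP synthase uses the returning protons to make ATP. Complex II takes electrons from succinate, complex III hands them to the small carrier cytochrome c, and complex IV, cytochrome c oxidase, reduces oxygen. The catalytic cores of complexes III and IV and the proton channel of ATP synthase hold subunits made inside the organelle from mitochondrial DNA, which are assembled with subunits imported from the cytosol, whereas complex II is wholly nuclear. The heart depends on this machinery for nearly all of its ATP and, with skeletal muscle, uses its own forms of several complex IV subunits.

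The deposited tables give 1 comparison of groups and no value per library, so the spread between hearts is shown only through the standard errors of the fold changes, and depth per sample is unknown. Nothing in the labels says which replicates share a litter or a day. The authors' deposited gene table does not name the group its fold change is relative to. The direction was read from exons of near-full inclusion, whose distance from 100% shrinks as reads accumulate: 595 of 628 genes past the test (94.7%) had a fold change of the sign given by that depth, and introns near 0 gave 412 of 547 (75.3%). Positive values are thus higher in cKO. Srsf3 itself stood at 0.02 (SE 0.07, DESeq2 adjusted p = 0.935) in the authors' deposited gene table, a sum over all its transcripts in whole heart that does not check the deletion. Srsf3 is in the authors' sleuth list, which was read for membership without a direction.

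Nuclear subunit mRNAs had fold changes below 0 of similar small size in every complex, with a minority of them past the test, and the mRNAs made in the organelle were mostly nearer to 0. At an adjusted p under 0.05 in the authors' DESeq2 test, 14 of the 50 genes fell and 0 rose. With p adjusted over all genes that have one, the calls of Uqcrfs1, Cox6a2, Cox7a2, Atp5j and Atp5j2 are lost and 9 are left. Over all tested genes 3.31% were called lower and 3.78% higher. Among the 1701 genes whose mean reached 4000 normalized counts, which holds for every one of the 50, 8.52% were called lower. All 14 genes that fell are nuclear. In the authors' deposited gene table the median log2 fold change of the 44 nuclear genes was -0.29 (-18.2% in level), against -0.0038 over all tested genes and -0.05 over those with a mean of at least 4000. Values of the 44 nuclear genes ran from -0.41 to -0.15 in the authors' deposited gene table and all were negative, as were 63.1% of the genes with a mean of at least 4000. Of the 50 genes 40 had an unadjusted p under 0.05 in the same DESeq2 test, all with negative fold changes. In either direction, 3057 of the 15929 tested genes and 496 of the 1701 with a mean of at least 4000 had such a p.

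**Figure D1:**
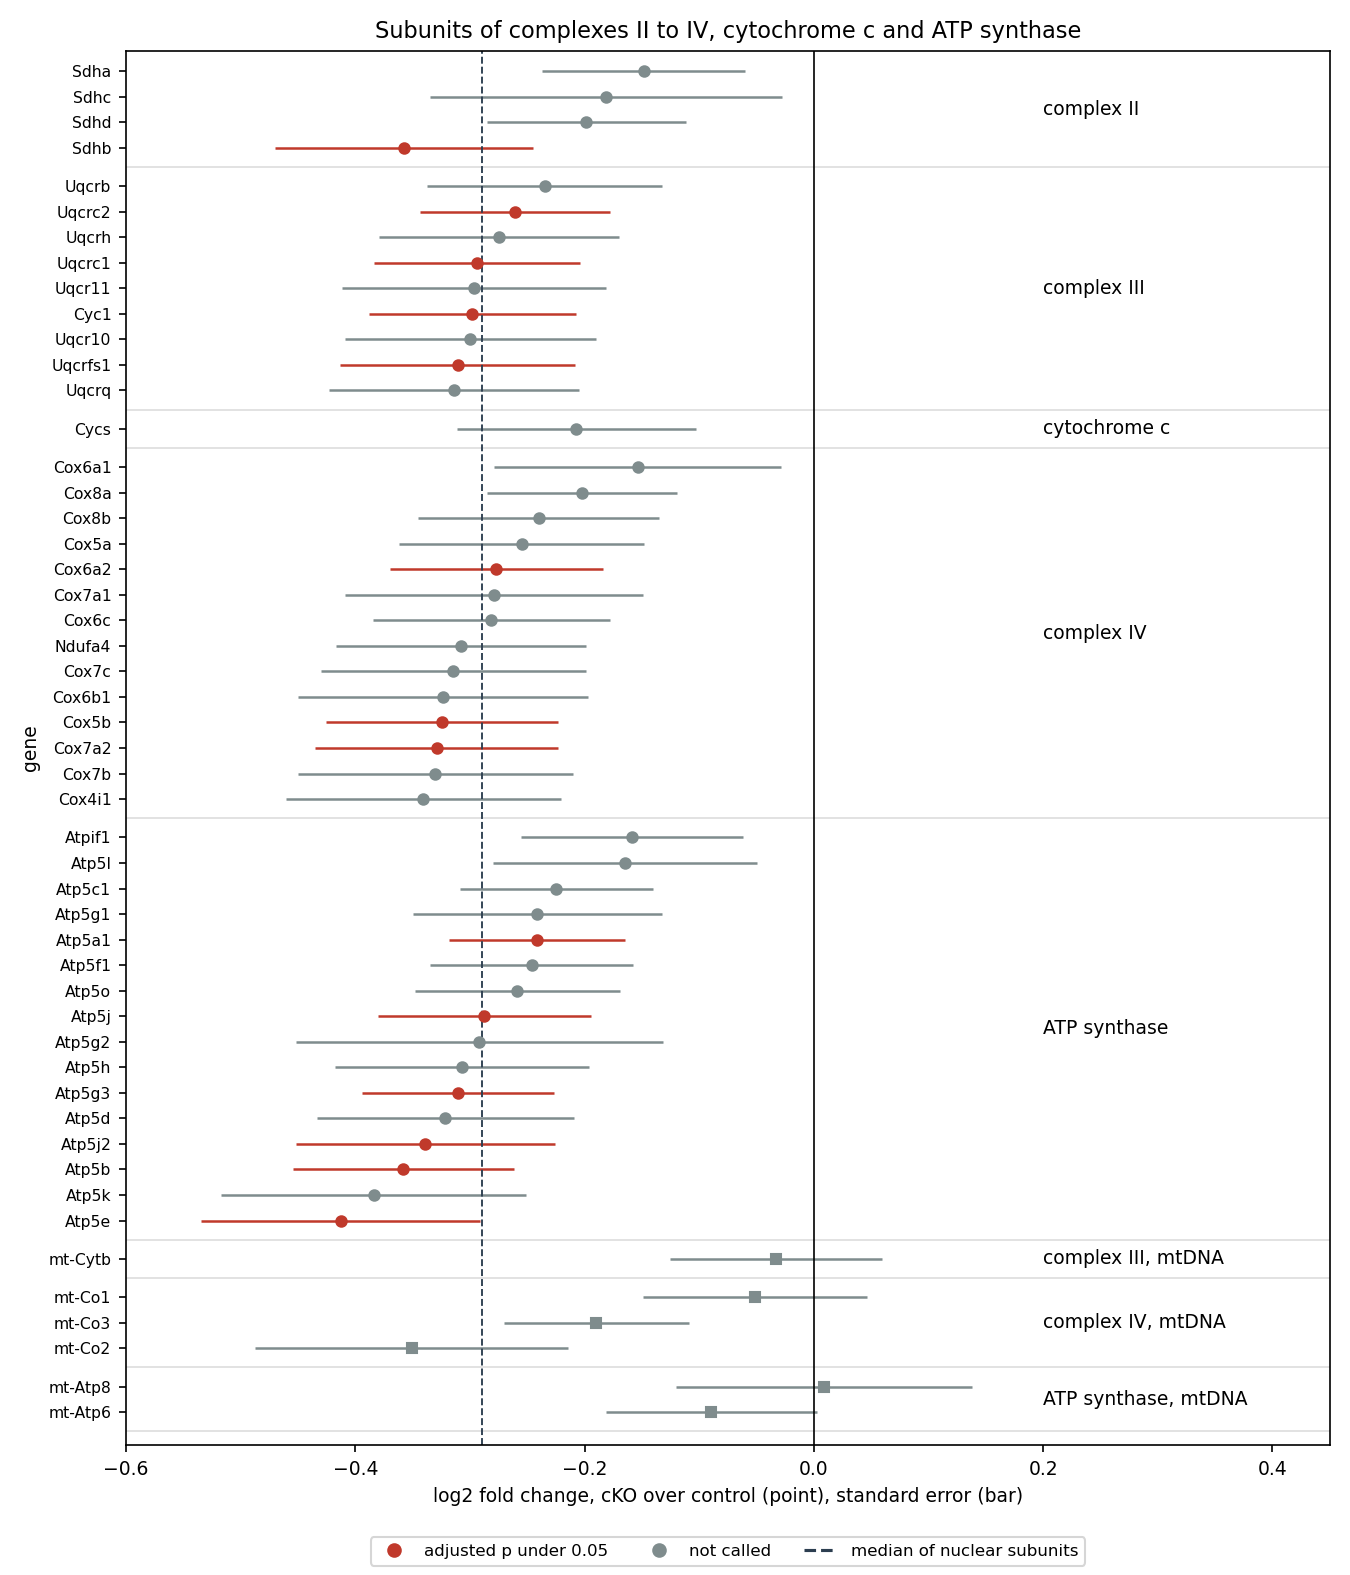
Log2 fold change (cKO over control, points) with its standard error (bars) for the 50 genes by complex, from the authors' deposited gene table; circles are nuclear and squares mitochondrial genes, red marks an adjusted p under 0.05, and the dashed line is the median of the nuclear genes at -0.29. Nuclear genes lie between -0.41 and -0.15 in every complex, and 4 of the 6 mitochondrial genes lie above all of them.

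The fold changes of the nuclear genes lay close together. Their SD over the 44 genes was 0.06, below the median standard error of 0.11 in the authors' deposited gene table, and the 95% intervals of all 44 hold the nuclear median. The genes share the 6 libraries, so their errors are not independent. The SD set beside the standard error does not measure how alike their changes are. The interval excludes 0 for 38 of the 44. The 14 genes that fell had a median of -0.31 and a median standard error of 0.09, and the 30 others -0.27 and 0.11, in the authors' deposited gene table. Of those 30, 15 had an adjusted p between 0.05 and 0.1.

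**Figure D2:**
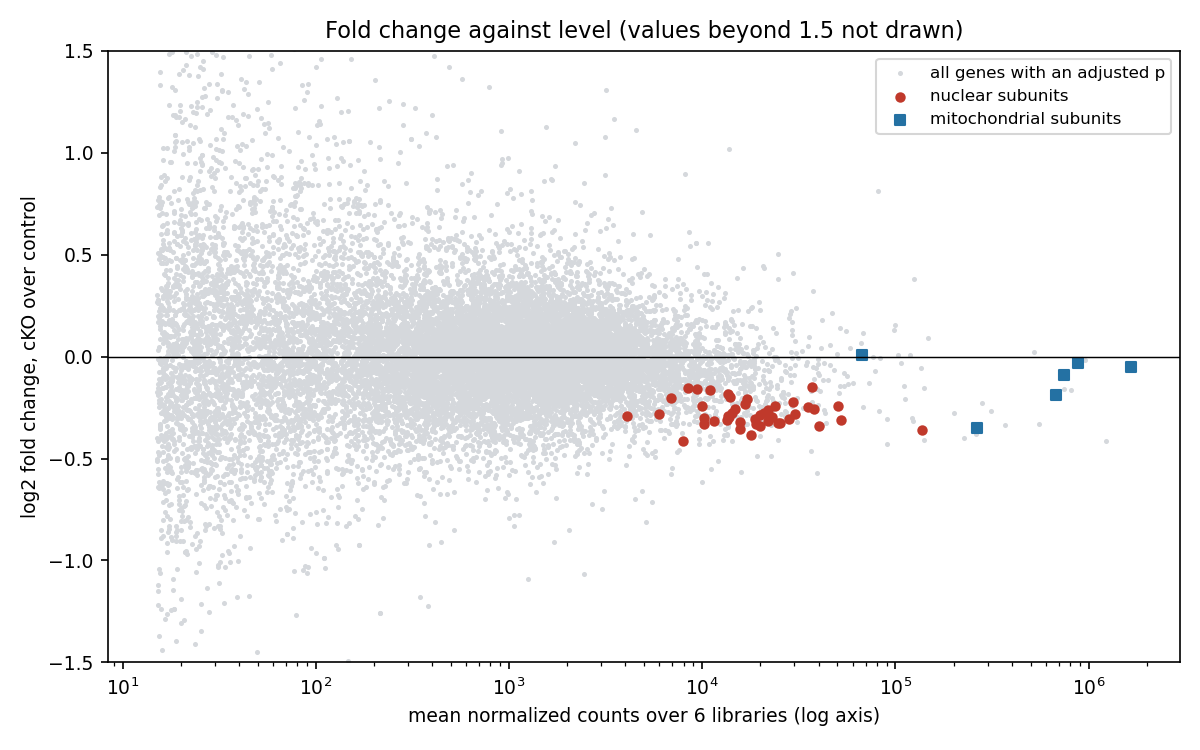
Log2 fold change (cKO over control) against the mean normalized counts over 6 libraries on a log axis, from the authors' deposited gene table, for all tested genes (grey, values beyond 1.5 not drawn), nuclear subunits (red circles) and mitochondrial subunits (blue squares). The nuclear subunits form a band below 0 at means of 4075 to 137852, and the mitochondrial ones reach 1657073.

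Complex II, succinate dehydrogenase, joins the citric acid cycle to the chain. Its iron-sulfur subunit gene Sdhb fell by 0.36 (SE 0.11, DESeq2 adjusted p = 0.0284) at a mean of 15611 normalized counts in the authors' deposited gene table. The other complex II genes did not pass. Sdha, the flavoprotein that oxidises succinate, had the highest mean, 36876 normalized counts, and the fold change closest to 0 among nuclear genes, -0.15 (SE 0.09, DESeq2 adjusted p = 0.365) in the authors' deposited gene table. Sdhc and Sdhd, which anchor the enzyme in the membrane, stood at -0.18 (SE 0.15) and -0.20 (SE 0.09) in the authors' deposited gene table. Sdhb minus Sdha came to -0.21 with a combined standard error of 0.14 and a 95% interval from -0.49 to 0.07, which holds 0. The median of the 4 genes was -0.19. The depth behind near-constitutive exons, a readout from the splicing table, went the other way for Sdhb, at 0.81 relative to all genes over 6 exons, and 0.20 over 7 introns.

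In complex III 4 of 9 nuclear genes fell, and the median was -0.30. Cyc1, cytochrome c1, which passes electrons on to cytochrome c, fell by 0.30 (SE 0.09, DESeq2 adjusted p = 0.0209) at 22856 normalized counts, the highest mean of the complex, in the authors' deposited gene table. The Rieske iron-sulfur protein gene Uqcrfs1 fell by 0.31 (SE 0.10, DESeq2 adjusted p = 0.0392) in the authors' deposited gene table. Both core proteins followed: Uqcrc1 fell by 0.29 (DESeq2 adjusted p = 0.0227) and Uqcrc2, of the next highest mean, fell by 0.26 (DESeq2 adjusted p = 0.0303) in the authors' deposited gene table. Among the small subunits around this core none passed. Uqcrq had -0.31 (DESeq2 adjusted p = 0.0537), Uqcr10 -0.30, Uqcr11 -0.30, the hinge protein gene Uqcrh -0.27 and Uqcrb -0.23 in the authors' deposited gene table. Cycs, the mobile carrier cytochrome c of somatic tissues, had -0.21 (SE 0.10, DESeq2 adjusted p = 0.249) in the authors' deposited gene table. Its testis counterpart Cyct was at a mean of 2.78 normalized counts, too low for an adjusted p.

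In complex IV 3 of 14 nuclear genes fell, and the median was -0.29. The genes that fell were Cox5b, a subunit of the matrix side, Cox7a2, the general form of a membrane subunit, and Cox6a2, the muscle form of another. Cox5b fell by 0.32 (SE 0.10, DESeq2 adjusted p = 0.0271) in the authors' deposited gene table. Cox4i1, whose product is the largest nuclear subunit and binds adenine nucleotides, had the highest mean of the nuclear complex IV genes, 40237 normalized counts, and stood at -0.34 (SE 0.12, DESeq2 adjusted p = 0.0572) in the authors' deposited gene table. Next in mean was Cox6c with 30237 normalized counts and -0.28 (SE 0.10, DESeq2 adjusted p = 0.0737) in the authors' deposited gene table. Cox5a, Cox6b1, Cox7b, Cox7c and Ndufa4, a subunit first assigned to complex I, lay between -0.33 and -0.26 in the authors' deposited gene table and did not pass.

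Muscle and general forms of complex IV subunits were not distinguished in fold change, with wide intervals on their differences. Cox6a2, Cox7a1 and Cox8b are the forms of adult heart and skeletal muscle in the mouse, and Cox6a1, Cox7a2 and Cox8a those of most other tissues. In the authors' deposited gene table Cox6a2 fell by 0.28 (SE 0.09, DESeq2 adjusted p = 0.0445), while Cox6a1 stood at -0.15 (SE 0.13, DESeq2 adjusted p = 0.564). Their difference of -0.12 had a combined standard error of 0.16 and a 95% interval from -0.43 to 0.18. For the next pair the general form passed: Cox7a2 fell by 0.33 (SE 0.11, DESeq2 adjusted p = 0.0331) and Cox7a1 stood at -0.28 (SE 0.13, DESeq2 adjusted p = 0.2) in the authors' deposited gene table. Their difference was 0.05 (combined SE 0.17, 95% interval -0.28 to 0.38). By the depth behind 3 near-constitutive introns of each gene in the splicing table, on the log2 scale relative to all genes, the values were -0.23 for Cox7a1 and -0.59 for Cox7a2, a difference of 0.36 with no error. The -0.23 of Cox7a1 is the centring on all genes alone, as its median depth did not differ between groups before centring. Cox8b and Cox8a stood at -0.24 (SE 0.10, DESeq2 adjusted p = 0.163) and -0.20 (SE 0.08, DESeq2 adjusted p = 0.127) in the authors' deposited gene table. Their difference was -0.04 (combined SE 0.13, 95% interval -0.30 to 0.22). No p is given for these differences, whose standard errors take the estimates of a pair as independent although they share libraries. In level, as mean normalized counts per kilobase of transcript over both groups, the muscle form made up 58.7% of the Cox6a pair, 49.6% of the Cox7a pair and 69.1% of the Cox8 pair. These shares are approximate, since they rest on the full length of 1 transcript a gene and other lengths were not tried. The muscle and general transcripts used have 680 and 571 bases (Cox6a), 393 and 659 (Cox7a), and 360 and 550 (Cox8).

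**Figure D3:**
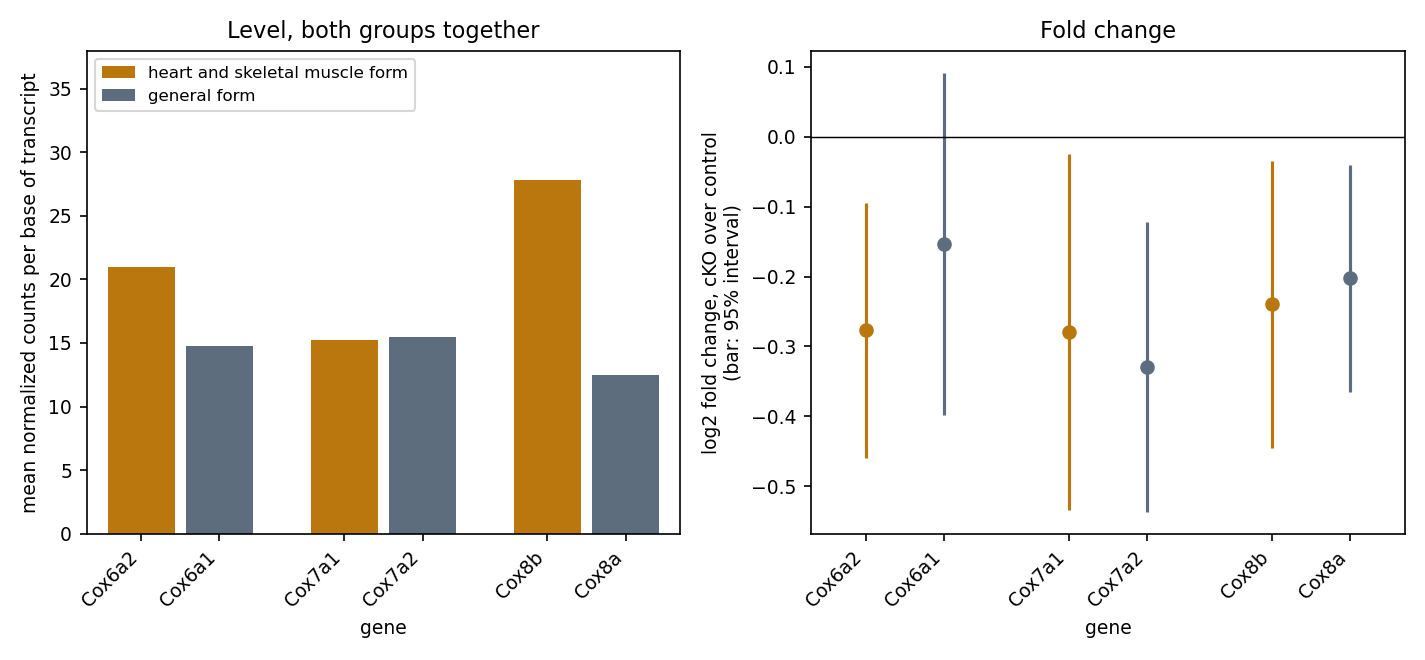
Muscle (brown) and general (grey) forms of 3 complex IV subunits, from the authors' deposited gene table. Left, mean normalized counts per base of transcript over both groups; right, log2 fold change (cKO over control) with its 95% interval. The intervals of the muscle and the general form overlap in each pair, and only that of Cox6a1 holds 0.

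In ATP synthase 6 of 16 nuclear genes fell, the median was -0.29, and the lowest fold change of all 50 genes was found here. Atp5e, the small epsilon subunit of the rotor stalk, at chr2:174461072-174464105 (GRCm38), fell by 0.41 (SE 0.12, DESeq2 adjusted p = 0.017) in the authors' deposited gene table. Atp5b encodes the catalytic beta subunit, at chr10:128083273-128090391 (GRCm38), and had the highest mean of the 44 nuclear genes, 137852 normalized counts. It fell by 0.36 (SE 0.10, DESeq2 adjusted p = 0.00677), the smallest adjusted p of the 50 genes, in the authors' deposited gene table. Its partner in the catalytic hexamer, the alpha subunit gene Atp5a1, fell by 0.24 (SE 0.08, DESeq2 adjusted p = 0.0295) in the authors' deposited gene table. Within this F1 head, 3 of 5 genes fell. Atp5d, the delta subunit, stood at -0.32 (DESeq2 adjusted p = 0.0545) and Atp5c1, the gamma shaft that turns inside the head, at -0.22 (DESeq2 adjusted p = 0.0824) in the authors' deposited gene table.

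The membrane ring of c subunits, which carries the protons, is encoded by Atp5g1, Atp5g2 and Atp5g3, whose mature proteins are identical. Atp5g3 fell by 0.31 (SE 0.08, DESeq2 adjusted p = 0.00737) in the authors' deposited gene table. Atp5g2 stood at -0.29 (SE 0.16, DESeq2 adjusted p = 0.31) and Atp5g1 at -0.24 (SE 0.11, DESeq2 adjusted p = 0.18) in the authors' deposited gene table. Atp5g3 minus Atp5g1 was -0.07 (combined SE 0.14, 95% interval -0.34 to 0.20), so the 3 genes were not distinguished. Atp5g3 made up most of the ring's mRNA level per kilobase over both groups: 87.1% with the main GENCODE transcript of each gene and 59.7% with the shortest coding one, since annotated coding transcripts of Atp5g1 are 596 to 4715 bases long. Reads common to similar genes were divided among them by the authors' estimate, so the levels of these 3 are uncertain to that degree.

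Of the 7 genes of the peripheral stalk and the membrane part 2 fell. Atp5j, coupling factor 6 of the stalk, fell by 0.29 (SE 0.09, DESeq2 adjusted p = 0.0343) and Atp5j2, the f subunit, fell by 0.34 (SE 0.11, DESeq2 adjusted p = 0.041) in the authors' deposited gene table. Close to the threshold were Atp5k, the e subunit that helps pair the enzymes into dimers, at -0.38 (SE 0.13, DESeq2 adjusted p = 0.0527) and Atp5o, the stalk subunit of oligomycin sensitivity, at -0.26 (SE 0.09, DESeq2 adjusted p = 0.0518) in the authors' deposited gene table. Atp5h and Atp5f1, the d and b subunits of the stalk, stood at -0.31 (DESeq2 adjusted p = 0.0674) and -0.25 (DESeq2 adjusted p = 0.0647) in the authors' deposited gene table. Atp5l, the g subunit, was at -0.16 (DESeq2 adjusted p = 0.475) in the authors' deposited gene table. The value of Atpif1, which blocks ATP hydrolysis by the enzyme when the proton gradient is lost, was -0.16 (SE 0.10, DESeq2 adjusted p = 0.385) in the authors' deposited gene table.

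None of the 6 mitochondrially encoded genes passed the authors' DESeq2 test, 2 had an unadjusted p under 0.05, and 0 were in the authors' sleuth or featureCounts lists. They made up 9.83% of all normalized counts in the authors' deposited gene table, against 2.28% for the 44 nuclear genes. mt-Co1, mt-Co2 and mt-Co3 form the catalytic core of complex IV. Their log2 fold changes were -0.05 (SE 0.10, DESeq2 adjusted p = 0.85), -0.35 (SE 0.14, DESeq2 adjusted p = 0.0996) and -0.19 (SE 0.08, DESeq2 adjusted p = 0.145) in the authors' deposited gene table. mt-Cytb, the heme core of complex III, stood at -0.03 (SE 0.09, DESeq2 adjusted p = 0.904) in the authors' deposited gene table. mt-Atp6 and mt-Atp8, membrane subunits of ATP synthase, stood at -0.09 (SE 0.09, DESeq2 adjusted p = 0.677) and 0.01 (SE 0.13, DESeq2 adjusted p = 0.985) in the authors' deposited gene table. These 2 genes overlap in mitochondrial DNA (mt-Atp8 at chrM:7766-7969, mt-Atp6 at chrM:7927-8607, GRCm38). Reads wholly within the overlap match both and were divided between them by the authors' estimate. The median of the 6 genes was -0.07, and 4 of them lay above every nuclear gene, while mt-Co2 and mt-Co3 lay within the nuclear range.

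Within complexes some nuclear and mitochondrial subunits were compared by the difference of their fold changes, without a p. These pairs were not among those planned, and other pairs of the same complexes were not compared. Each nuclear gene used lies below the nuclear median of its complex, so the pairs do not stand for the complexes. Atp5b minus mt-Atp6 was -0.27 (combined SE 0.13, 95% interval -0.53 to -0.01). Cyc1 minus mt-Cytb was -0.26 (combined SE 0.13, 95% interval -0.52 to -0.01), and Uqcrfs1 minus mt-Cytb was -0.28 (combined SE 0.14, 95% interval -0.55 to -0.01). These intervals end just below 0. In complex IV Cox5b minus mt-Co1 was -0.27 (combined SE 0.14, 95% interval -0.55 to 0.0029) and Cox4i1 minus mt-Co1 was -0.29 (combined SE 0.15, 95% interval -0.59 to 0.01). Against the other end of the mitochondrial range, mt-Co2 minus Cox5b was -0.03 (combined SE 0.17, 95% interval -0.36 to 0.31). The 95% intervals of 2 of the 6 mitochondrial genes hold the nuclear median. The difference between both groups of genes as a whole was not tested.

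The depth behind near-constitutive exons and introns gave a readout of the same libraries from another of the authors' tables, set relative to all genes. Exon depth was lower in cKO relative to all genes for 8 of 10 of the genes with enough such exons, with a median of -0.40 on the log2 scale. Before centring, which took off 0.39 for exons, Sdha and Uqcrc1 among them were higher in cKO. Centring on all genes fixes the share of negative genes, 49.99%, so that share is no background. Depth of this kind also set the sign of the fold changes, so it does not check their direction. Other genes of similar mean were not examined for depth. Intron depth was lower relative to all genes for 16 of 19, with a median of -0.28. Before centring, which took off 0.23 for introns, Cox7a1 among them did not differ. Sdha, Sdhd, Uqcrc2, Cyc1 and Cox4i1 were then higher in cKO, so they too were lower by the centring alone. Atp5b had -0.43 by exons and -0.37 by introns, and Atp5a1 had -1.10 and -0.50. The genes that went against their fold change by exon depth were Sdhb, given above, and Atp5g3 at 0.13, named here after their values were seen. By intron depth they were Sdhb, Cox5a at 0.06 and Atp5o at 0.16, whereas Atp5g3 had -0.46.

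Among other genes of respiration, the nuclear subunits of complex I had a median close to that of the 44 genes, and the assembly, upkeep and cristae lists had medians nearer to 0. The 36 nuclear subunits of complex I had a median of -0.27, with 11 lower and 0 higher, and the 7 mitochondrial ones -0.07, with 0 called. Ndufc2 fell by 0.37, Ndufb7 fell by 0.42 and Ndufs1, its largest core subunit, fell by 0.24 in the authors' deposited gene table (DESeq2 adjusted p = 0.003, 0.0152 and 0.0194). Assembly factors of complexes II and III had a median of -0.06 over 11 genes, and those of ATP synthase -0.08 over 6, with 0 called in either. For assembly of complex IV the median was 0.0074 and the mean weighted by precision -0.03 over 25 genes, of which 24 had an adjusted p. There Cox19, a copper handling protein, rose by 0.45 (SE 0.10, DESeq2 adjusted p = 0.00118), and Smim20, which stabilises new mt-Co1 protein, fell by 0.44 (SE 0.11, DESeq2 adjusted p = 0.00323) in the authors' deposited gene table. Genes that copy and express mitochondrial DNA had a median of -0.04 over 18, cristae genes -0.05 over 7, and carriers and channels for ATP, phosphate and substrates -0.16 over 12, with 0 called in these lists. By unadjusted p under 0.05 in the same DESeq2 test they had 3 of 18, 2 of 7 and 6 of 12 genes. The background was 3057 of the 15929 tested genes, and 496 of the 1701 with a mean of at least 4000. Of 15 regulators of respiration 2 fell, by 0.37 for the coactivator Ppargc1b and by 0.25 for the muscle regulator Perm1 in the authors' deposited gene table (DESeq2 adjusted p = 0.0179 and 0.0288). Of 10 further genes in a list of other subunits and isoforms, 7 had an adjusted p and 1 fell. It was Dmac2, not itself a subunit of these complexes, by 0.35 (DESeq2 adjusted p = 0.0497) in the authors' deposited gene table.

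**Figure D4:**
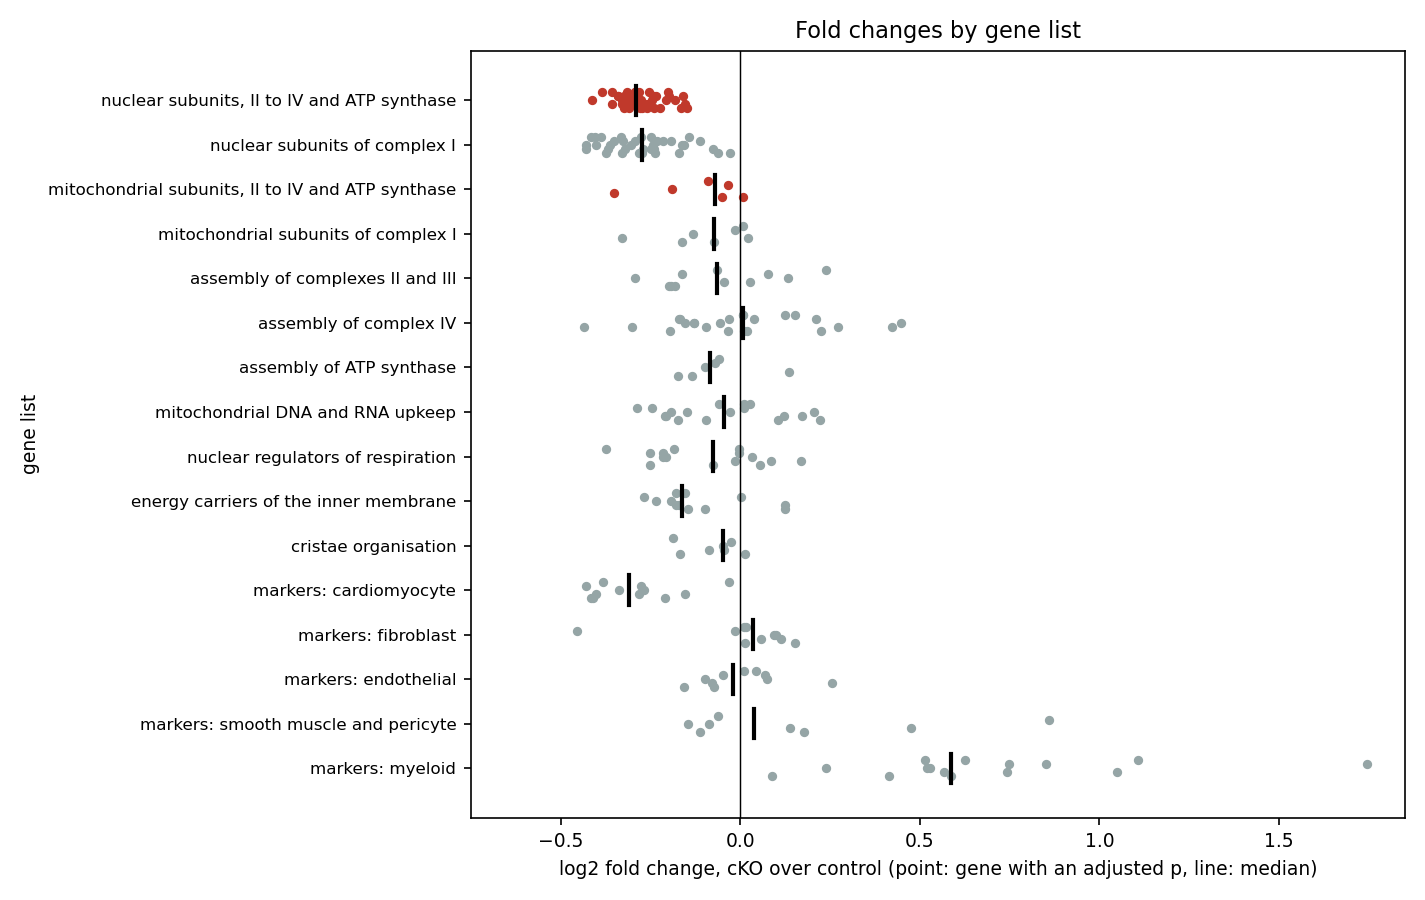
Log2 fold change (cKO over control, points, 1 per gene with an adjusted p) by gene list, with the median over all genes of each list as a black line, from the authors' deposited gene table; red points are the 50 genes. The nuclear subunits (-0.29), those of complex I (-0.27) and the cardiomyocyte markers (-0.31) lie to the left, and the myeloid markers (0.59) to the right.

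Markers of cell types moved in the same comparison. All 12 cardiomyocyte markers had negative fold changes, from -0.43 to -0.03 with a median of -0.31, close to that of the nuclear subunits. Of them 6 fell, among them the myosin light chain gene Myl3, by 0.41, Myl2, by 0.38, and cardiac actin, Actc1, by 0.40 in the authors' deposited gene table (DESeq2 adjusted p = 0.000597, 0.00406 and 0.00576). All 15 myeloid markers had positive values, with a median of 0.59, and 7 rose. Lyz2, lysozyme of macrophages, rose by 1.11, Lgals3, galectin 3, rose by 1.74 and the receptor gene Csf1r rose by 0.53 in the authors' deposited gene table (DESeq2 adjusted p = 2.65e-08, 8.27e-05 and 0.000429). The fibroblast, endothelial and smooth muscle lists had medians of 0.04, -0.02 and 0.04, and in each 1 gene passed: Thy1 fell by 0.46, Vwf rose by 0.25 and Tagln rose by 0.47 in the authors' deposited gene table (DESeq2 adjusted p = 0.0131, 0.0493 and 0.0405). Brown fat, which also holds much Cox7a1 and Cox8b, had 9 markers, 7 of them with an adjusted p, and values from -0.38 to 4.32. Their median was 1.84, the value of Lep at a mean of 9.71 normalized counts, and their mean weighted by precision was 0.05. Cidea rose by 0.60 (SE 0.17, DESeq2 adjusted p = 0.009), and Ucp1, the uncoupling protein that defines this tissue, stood at 2.67 (SE 2.22, DESeq2 adjusted p = 0.572) at a mean of 701.5 normalized counts in the authors' deposited gene table. Fabp4, the fatty acid binding protein of fat cells and the most abundant of the list at 23594 normalized counts, stood at -0.23 (SE 0.12, DESeq2 adjusted p = 0.28), and the fat regulator Prdm16 at -0.38 (SE 0.19, DESeq2 adjusted p = 0.238) in the authors' deposited gene table. Skeletal muscle markers had a median of 0.17 over 9 and a mean weighted by precision of -0.18, with Tnni2 lower by the test: it fell by 0.80 (DESeq2 adjusted p = 0.00849) in the authors' deposited gene table. The tables hold no level per group or heart for these lists, and their part in the values of the subunit genes was not tested.

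The promoters of the genes were searched for motifs of factors known to drive respiratory genes. RefSeq promoters (GRCm38.p6, from 250 bases before to 50 after the start) were matched by symbol for 34 of the 50 genes, and the same windows of 32851 promoters gave the background. The 34 were counted by gene, with 37 promoters among them, and the background by promoter, so the shares differ in unit. The NRF1 motif GCGCATGC, on either strand, was in 8 of the 34 (23.5%) and in 2.71% of all promoters. The ETS motif CCGGAAG, bound by GABPA, was in 12 (35.3%) against 8.86%, the estrogen-related receptor motif TCAAGGTCA in 2 (5.88%) against 0.423%, and the YY1 motif AAGATGGC in 2 (5.88%) against 2.75%. CANNTG, the E-box, was in 24 (70.6%) against 72.3%, and TATAAA in 2 (5.88%) against 13.6%. Of 32 complex I genes 3 held the NRF1, 4 the ETS, 0 the estrogen-related receptor and 7 the YY1 motif, 23 the E-box and 4 TATAAA. Median GC content was 56.3% in the 37 promoters of the gene set and 52.7% over all promoters, and the median number of CG pairs in the window was 18 against 7. The NRF1 and ETS motifs hold CG, and its part in these shares was not tested. Of the 10 genes with a promoter that fell, 2 held the NRF1 and 3 the ETS motif, and of the 24 others 6 and 9. A match is a stretch of letters and not a measured site. The stretches before the first annotated start are printed for Atp5g3 and Atp5e, which fell and hold a match, for Cox6a1, whose matches of NRF1 overlap, and for the pair Cox7a1 and Cox7a2, with no match but the E-box, with matches other than the E-box in capitals.
Atp5g3, chr2:73911327-73911576, minus strand: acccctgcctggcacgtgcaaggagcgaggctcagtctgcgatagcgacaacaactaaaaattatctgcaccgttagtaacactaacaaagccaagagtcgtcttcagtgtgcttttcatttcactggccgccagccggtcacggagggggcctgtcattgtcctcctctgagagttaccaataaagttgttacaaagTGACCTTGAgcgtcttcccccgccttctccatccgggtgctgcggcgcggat
Atp5e, chr2:174464106-174464351, minus strand: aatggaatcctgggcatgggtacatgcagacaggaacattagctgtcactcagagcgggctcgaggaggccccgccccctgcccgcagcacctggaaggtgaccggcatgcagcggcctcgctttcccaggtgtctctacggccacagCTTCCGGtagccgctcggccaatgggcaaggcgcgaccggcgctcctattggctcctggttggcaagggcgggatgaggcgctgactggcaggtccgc
Cox6a1, chr5:115348982-115349208, minus strand: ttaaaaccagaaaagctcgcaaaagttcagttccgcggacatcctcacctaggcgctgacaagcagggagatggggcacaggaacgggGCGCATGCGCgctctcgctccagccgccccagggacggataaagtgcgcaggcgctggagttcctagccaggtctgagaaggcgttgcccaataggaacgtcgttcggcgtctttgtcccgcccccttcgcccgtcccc
Cox7a1, chr7:30183921-30184143, plus strand: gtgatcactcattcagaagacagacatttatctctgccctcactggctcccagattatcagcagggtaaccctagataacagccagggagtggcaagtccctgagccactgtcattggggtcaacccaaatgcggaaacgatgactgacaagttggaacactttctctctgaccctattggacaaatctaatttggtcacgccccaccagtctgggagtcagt
Cox7a2, chr9:79759879-79760103, minus strand: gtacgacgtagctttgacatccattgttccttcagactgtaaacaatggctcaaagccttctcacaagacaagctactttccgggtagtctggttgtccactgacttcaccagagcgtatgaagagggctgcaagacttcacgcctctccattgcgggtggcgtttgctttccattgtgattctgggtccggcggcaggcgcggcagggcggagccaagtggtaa

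In splicing, 1 event of the subunit genes passed the authors' rule, the choice of a splice site in the first exon of Atp5h. An inclusion level is the share of transcripts, in percent, with an exon included, an intron retained or a splice site used, given by the authors for each group with its replicates combined. Over all events 0.23% passed the authors' minimum change of at least 10 points at a probability of 0.95, and among the 494 events of the subunit genes 1 did (0.202%). A minimum change above 0 was reached by 2.22% of all events and by 9 of the 494. A difference of at least 10 points, without the probability, was found for 2.46% of all events and for 11 of the 494. Few events of these genes were variable at all: 49 of 494 (9.92%), in 15 genes, had an inclusion level between 5 and 95% in either group, against 20.5% of all events. By type these shares were 4.85 against 11.9% for exons and 0 of 135 against 27.8% for introns. For alternative 3' splice sites they were 15.2 against 23.9%, and for 5' sites 19.1 against 24.4%. The background covers genes of all levels, whereas the 50 genes all have high means, and the part of level was not tested. None of the 103 exons and 135 introns passed. Introns of these genes were kept at 0.0057 to 3.45% in control and at 0.01 to 2.98% in cKO, and the only intron above 2% was one of 609 bases in Cyc1, at 3.45% in control and 2.98% in cKO. No events are listed for Cox8a, Cycs, Uqcrb and the 6 mitochondrial genes.

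**Figure D5:**
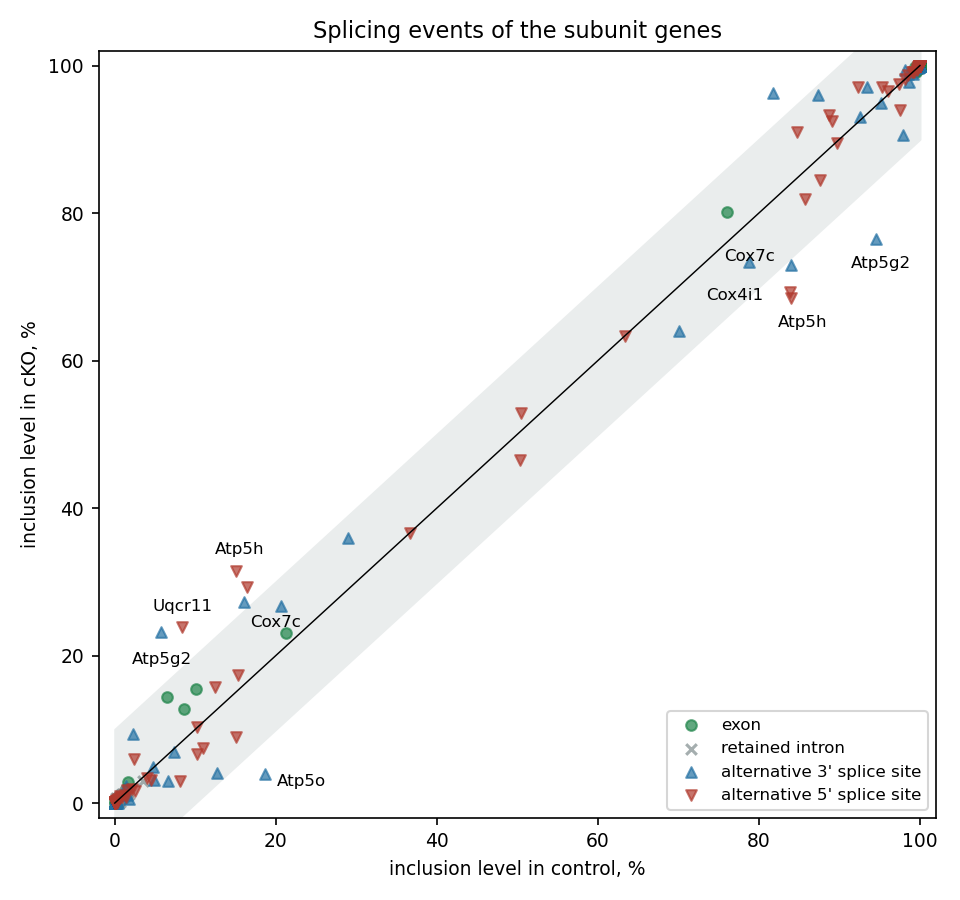
Inclusion level in cKO against control, in percent, for the 494 splicing events of the subunit genes, from the authors' deposited event table; symbols give the type of event and the grey band a difference of up to 10 points. Most events lie on the diagonal near 0 or 100%, and those of Atp5h, Atp5g2, Atp5o, Uqcr11, Cox4i1 and Cox7c lie outside the band.

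Atp5h encodes the d subunit of the peripheral stalk, at chr11:115415689-115419962 (GRCm38, minus strand). Its first exon ends at 1 of 3 donor sites, where the intron begins. In the authors' deposited event table the donor at position 115281070 of chromosome 11 (mm9) made up 15.0% of control and 31.5% of cKO use, with a minimum change of 11 points. The usual donor, 136 bases upstream at 115281206 (mm9), went from 83.9% to 68.5%, with a minimum change of 9 points, and the third donor was at 1.41 and 0.832%. cKO hearts thus used the inner donor more and the usual donor less. The usual donor matches the end of exon 1 of a coding GENCODE transcript by the length of its intron, 1375 bases in both. That exon is noncoding, and the coding sequence starts in the next exon. The end of exon 1 and the start of the intron, with the GT of the usual donor in capitals, is shown because this site lost usage.
Atp5h usual donor, chr11:115419874-115419901 (GRCm38.p6), minus strand: gtcggtgaagGTgagtggggtctgaggt
A 45-base exon of Atp5h was included at 6.44% in control and 14.4% in cKO, with a minimum change of 3 points. Total Atp5h mRNA stood at -0.31 (SE 0.11, DESeq2 adjusted p = 0.0674) in the authors' deposited gene table.

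Other differences of at least 10 points, or with a minimum change above 0, did not pass, and they are named after their values were seen. Cox7c, a membrane subunit of complex IV, has acceptor sites 16 bases apart before exon 2. The form with 127 bases of that exon went from 84.0% in control to 72.9% in cKO and the form with 143 bases from 16.1 to 27.2%, both with a minimum change of 4 points, in the authors' deposited event table. GENCODE holds the 143-base exon in 2 coding transcripts, and the 127-base exon in 1 transcript annotated as noncoding. In 1 of the coding transcripts, with 75 coding bases in exon 1 and 114 in exon 2, the 16 bases between the acceptors are coding. The reads behind each site were not examined. The 84.0% is therefore not taken as the share of Cox7c mRNA without the coding form. The extra bases, in capitals, end in AG like the acceptor itself.
Cox7c, start of exon 2, chr13:86045840-86045869 (GRCm38), minus strand: AATTTGCCATTTTCAGtggaaaacaagtgg
In Uqcr11, a small complex III subunit, a donor that matches the first exon of the coding transcript by its distances to neighbouring donors, 139 and 57 bases, went from 8.33% to 23.8%, with a minimum change of 4 points, in the authors' deposited event table. In Uqcrq, also of complex III, the inner of 2 donors 119 bases apart went from 2.45% to 5.98%, with a minimum change of 3 points. Atp5o had a 112-base exon form at 18.6% in control and 3.94% in cKO, with a minimum change of 1 point, beside the 124-base form at 81.7 and 96.3%, with a minimum change of 0. A minimum change of 0 was also given for Atp5g2, whose 88-base form went from 94.6% to 76.5%, and for Cox4i1, where a donor went from 83.8% to 69.3%, in the authors' deposited event table. Of these genes Atp5g2 has the lowest mean of the 44 nuclear genes, 4075 normalized counts.

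Complex II genes had 94 events and none that differed by 10 points, with a largest difference of 0.532 points. Of the 11 events that did, 6 were in ATP synthase, out of its 187 (3.21%). Complex IV held 4 of 96 (4.17%) and complex III 1 of 117 (0.855%), against 2.46% of all events. Both sites of a single choice count as separate events here, for Atp5h, Atp5g2, Atp5o, Cox4i1 and Cox7c.

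The authors' other gene lists bear on the same 50 genes. The sleuth list held 3.24% of all tested genes and 9 of the 50 genes, and the featureCounts list 0.659% and 0. The 9 were Sdhb, Cyc1, Atp5g3 and Atp5j, which fell, and Uqcrh, Cox7c, Atp5g1, Atp5h and Atp5l, which did not pass in the DESeq2 table.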

How the data were processed

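Whole-heart polyadenylated RNA of 3 control and 3 cKO mice was sequenced from stranded libraries, per the labels' protocols. The submitters' processing notes list trimming with Trimmomatic 0.38 after FastQC 0.10.1 and name the builds mm9, mm10 and GRCm38. Per the same notes the authors used kallisto 0.46.0 for quantification and DESeq2 1.24.0 for testing. Per the file headers the gene table that the authors deposited holds the mean normalized signal over the 6 libraries (called mean normalized counts here), a log2 fold change, its standard error, a Wald score, and a p-value before and after adjustment. The authors also deposited gene lists of other pipelines and, per the file headers, vast-tools inclusion levels as a fraction per group, printed here as percentages, with a minimum change.

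No file used holds values per library, so the fallback of the planned design was taken: the authors' own tests are reported, adjusted over 15929 genes, and no test over libraries, fit without a library or paired fit was made. The deposited adjusted p was checked to equal the Benjamini-Hochberg value over these genes. Depth per sample is unknown. The p-values set the difference between the groups against the estimated spread within them, for these 6 samples only.

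Symbols and positions came from GENCODE M21 (GRCm38), and 702 of 36558 gene IDs had no symbol. Event positions are mm9 and were matched to exons by lengths only. A gene with several IDs was read from the ID of highest mean. Levels per kilobase used 1 transcript a gene. Differences of fold changes carry the root of the summed squared standard errors. Depth was the distance from full inclusion (exons) or from 0 (introns) of events within 3 points of that limit in both groups, as the median of at least 3 events a gene, centred on all genes. Scripts were tested on simulated data (Python 3.11.15, pandas 2.3.3, scipy 1.17.1).

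The 50 genes and the other lists were chosen with earlier results of these data known. Named are the genes that passed, mitochondrial genes, muscle and general pairs, c ring genes, the 2 genes of highest mean per complex, up to 3 genes per list by smallest adjusted p, and events past the minimum change. Others were added to describe each complex in full.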

Additional observations from a re-analysis of the deposited data

How the results depend on the processing

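Of the 50 genes, 14 were called lower. The count was 9 when p was adjusted over all genes with a p, which adds weakly expressed genes and lost the calls of Uqcrfs1, Cox6a2, Cox7a2, Atp5j and Atp5j2. It was 19 with genes under a mean of 100 left out, 14 after centring on the median of all tested genes, 30 at an adjusted p under 0.1, 2 under 0.01 and 0 by Holm's adjustment. No gene was called higher under any of these settings. The authors' other lists, read for membership without a direction, held 9 (sleuth) and 0 (featureCounts) of the 50. Medians by complex, nuclear and mitochondrial genes kept their sign as means, weighted means and after both centrings (nuclear -0.29 to -0.27, mitochondrial -0.12 to -0.06). The single splicing call became 2 at a minimum change of 5 points, 9 above 0, and 11 by a difference of at least 10 points. Cox7a1 minus Cox7a2 was 0.36 by intron depth, and the cause was not tested. For the other pairs depth gave no value. No paired analysis was possible because the deposited tables hold no value per library, and leaving out a replicate was not possible for the same reason.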
